A study of Mus musculus with 4 samples.

Results

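S-phase cardiomyocytes are heart muscle cells in the part of the cell cycle that copies DNA. Here they were chosen by RNA counts alone, and DNA synthesis was not measured in these libraries. The measurements are unique molecular identifier (UMI) counts from single-cell RNA libraries of mouse ventricles at embryonic day 14.5, and 3204 of the 45551 barcodes in the 4 libraries were chosen by the rule given below. Control replicates 1 and 2 came from Tie2Cre; Ets1 fl/+ embryos and Ets1 eKO replicates 1 and 2 from Tie2Cre; Ets1 fl/fl embryos. All were untreated and on a C57BL/6 background, the sex of the embryos was not determined beforehand, and the study used them to ask what endothelial ETS1 does for cardiomyocyte proliferation and the compact myocardium. Both groups carry Tie2Cre, which recombines in endothelial and endocardial cells and in part of the blood lineage, and at least 1 floxed Ets1 allele, so the controls are not wild type and the cardiomyocytes are not the cells the deletion targets. Each library pools the ventricles of 3 embryos, and all 4 libraries are recorded as batch 1.

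In a dividing cell, origins of replication are licensed with the MCM helicase before S phase and fired during it. The fork then needs the sliding clamp PCNA, DNA polymerases, a supply of deoxynucleotides and new histones, and E2F transcription factors switch many of these genes on together. Fetal cardiomyocytes divide while they contract, and the outer compact zone of the fetal ventricle is known to divide more than the inner trabeculae.

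Barcodes were kept with 1000 to 7000 genes and at most 15% mitochondrial UMIs, with at least 1% of UMIs from Tnnt2, Actc1, Tnnc1 and Ttn (sarcomere genes) and with at most 1 UMI from the endothelial genes Pecam1, Cdh5, Emcn and Egfl7. These steps left 18046 cardiomyocytes. A cardiomyocyte was placed in S phase when Rrm2, Esco2, Pclaf and Hist1h1b (the S gate) gave at least 5 UMIs in sum and more than Ube2c, Ccnb1, Cenpf and Hmmr (the G2/M gate). For comparison, 4528 cells made up a G2/M class by the mirrored rule, 7815 cells with at most 1 UMI of each gate were called non-cycling, and 2499 fell between. Control replicates 1 and 2 held 917 and 434 S-phase cells, and Ets1 eKO replicates 1 and 2 held 752 and 1101.

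The libraries differ in depth, in sex-linked counts and in blood RNA, and these differences come before the results. Total counts were 124140739 and 76931208 UMIs in control replicates 1 and 2, and 95131419 and 102872196 in Ets1 eKO replicates 1 and 2. The median S-phase cell had 16607 and 17550 UMIs in the controls and 17499.5 and 10638 in the Ets1 eKO libraries, against 11192, 11834, 11145 and 6923 in non-cycling cells. S-phase cells were thus the deeper class in all 4 libraries, and Ets1 eKO replicate 2 was the shallow library.

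Xist, the RNA that silences an X chromosome in female cells, had a UMI in 0 of 917 S-phase cells of control replicate 1, which allows a share of up to 0.327%. Its share of S-phase cells was 51.6% for control replicate 2, then 52.5% and 96.0% for the Ets1 eKO libraries, while Y-linked genes were seen in 89.4%, 48.6%, 43.0% and 1.73%. Control replicate 1 therefore carried male counts, Ets1 eKO replicate 2 almost wholly female counts, and the remaining pair of libraries both. The 8 erythroid markers summed to 859 and 652 UMIs per 1000000 (CPM) in S-phase cells of the controls and to 426 and 3822 CPM in Ets1 eKO replicates 1 and 2, with the globin gene Hbb-bs the most abundant. Barcode sequences were shared by 19 to 47 barcodes between pairs of libraries, and 1 S-phase barcode was shared, between control replicate 1 and Ets1 eKO replicate 1.

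Rrm2 encodes the small subunit of ribonucleotide reductase, and it stood at 301 and 268 CPM in control S-phase cells and at 244 and 334 CPM in the Ets1 eKO replicates. Esco2, which acetylates cohesin on newly copied DNA, stood at 150, 139, 152 and 151 CPM in the same order of libraries. Pclaf, which binds PCNA, stood at 453, 404, 460 and 540 CPM. Hist1h1b, a linker histone made for new chromatin, stood at 562, 594, 812 and 447 CPM. All 4 genes chose the cells, so their levels describe the class and test nothing about it. Hist1h1b also gave 38.4%, 42.3%, 48.7% and 30.4% of the S gate UMIs, so the shallow library leaned on it least and on Pclaf most (36.7%).

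**Figure D1:**
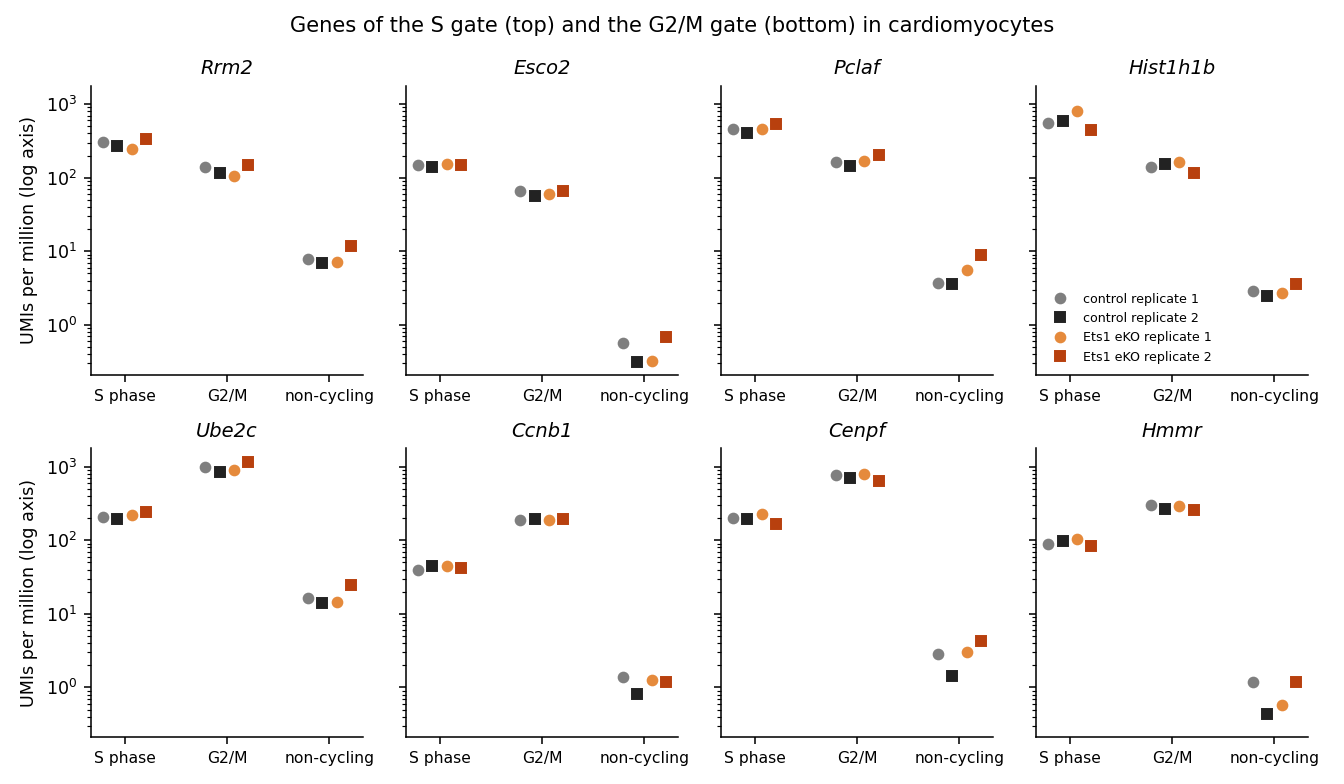
Levels of the 4 S gate genes (top) and 4 G2/M gate genes (bottom) in UMIs per 1000000 on a log axis, in S-phase, G2/M and non-cycling cardiomyocytes of the 4 libraries (grey and black circles and squares, controls; orange and red, Ets1 eKO). Each gate separates the class it defines, and S-phase cells still hold G2/M gate RNA, such as Ube2c at 197 to 246 CPM.

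The plot of gate genes by class shows that the gates do not divide the cells cleanly. The median S-phase cell had 24, 24, 29 and 15 S gate UMIs, control libraries first and then Ets1 eKO, and 6, 6, 6.5 and 4 UMIs of the G2/M gate. At the threshold, 48, 23, 24 and 64 members had exactly 5 S gate UMIs, and 47, 33, 45 and 76 cells stayed outside with 4. The licensing genes described below summed to 1359, 1415, 1394 and 1430 CPM in the members at 5 UMIs and to 1210, 1350, 1377 and 1337 CPM in the cells at 4. Cells on either side of the minimum thus held much the same licensing RNA. A further 648, 266, 423 and 746 cells reached 5 S gate UMIs but had at least as many of the G2/M gate.

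Genes of cycling cells outside the gates were counted in the same classes. With every cell thinned at random to 5000 UMIs, Mki67, the proliferation antigen Ki-67, had a UMI in 61.1% and 62.9% of control S-phase cells and in 62.3% and 56.2% of those of Ets1 eKO replicates 1 and 2. In non-cycling cells the shares were 2.21%, 1.46%, 2.25% and 2.19%. Top2a, which untangles copied DNA, had a UMI in 77.4%, 79.9%, 80.4% and 79.3% of S-phase cells and in 5.57%, 3.66%, 5.77% and 6.13% of non-cycling cells. In G2/M cells the shares were 59.6%, 62.8%, 60.9% and 57.1% for Mki67 and 55.2%, 54.2%, 54.8% and 62.2% for Top2a. Mki67 thus marks cycling and does not tell S phase from G2/M, and the non-cycling class was itself chosen for its lack of gate RNA. The 8 cardiomyocyte markers of the study summed to 40650, 38676, 42318 and 41148 CPM in S-phase cells and to 46409, 44904, 48109 and 47362 CPM in non-cycling ones, and 4 of the 8 are the genes of the cardiomyocyte gate, which chose both classes. The other 4 (Tnni1, Tpm1, Tnni3 and Nexn), outside the gate, had S-phase to non-cycling ratios of 0.874, 0.812, 0.856 and 0.924. Doublet scores would remove 14.2%, 13.8%, 12.1% and 13.6% of S-phase cells, against 3.39%, 2.60%, 3.07% and 4.64% of non-cycling cells. Without those cells the median log2 differences to non-cycling cells given below were 2.39 for licensing, 2.12 for fork, 1.51 for nucleotide supply, 2.03 for chromatin and 2.38 for fork repair genes.

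S-phase levels were compared with non-cycling and G2/M levels in each library as a description, since the rule drew on the same contrast. Of 14627 genes with enough counts, 3863 were above non-cycling cells in all 4 libraries (26.4%) and 5842 below (39.9%), and the median gene differed by -0.088 on the log2 scale. Against G2/M cells, 3331 genes were above in all 4 (22.8%) and 4505 below (30.8%), with a median of -0.036. The counts for each gene group stand beside these backgrounds, and no test is read from them.

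Origin licensing and firing genes were all above non-cycling cells, 20 of 20 in all 4 libraries, with a median log2 difference of 2.36. Mcm5, a subunit of the MCM helicase, stood at 65.1 and 72.3 CPM in control S-phase cells and at 60.6 and 65.8 CPM in Ets1 eKO replicates 1 and 2, against 11.5, 13.3, 12.0 and 15 CPM in non-cycling cells. Mcm10, which helps turn the loaded helicase into a moving fork, reached a median ratio of 18.3. Cdc6 and Cdt1 load the helicase, and they parted S phase from G2/M more than from non-cycling cells, with median ratios of 13.7 and 7.58 to G2/M and of 8.55 and 4.18 to non-cycling cells. Dbf4, the activator of the CDC7 kinase that fires origins, was the exception among the 20, with a ratio of 0.787 to G2/M cells.

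Replication fork genes followed, with 24 of 24 above both non-cycling and G2/M cells in all 4 libraries and median log2 differences of 2.08 and 1.64. Pcna stood at 263, 236, 191 and 235 CPM in S-phase cells and at 40.6, 34.6, 27.6 and 44.3 CPM in non-cycling ones. Clspn, which couples the fork to the checkpoint, had the largest ratio of the list at 16.4. Lig1, the ligase that joins Okazaki fragments, had a ratio of 7.20, and Rfc1, the large subunit of the clamp loader, one of 1.86. Fork components thus lay above non-cycling cells throughout, by amounts that differed widely between them.

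Nucleotide supply genes differed less, with 11 of 11 above both classes and median log2 differences of 1.46 to non-cycling and 0.85 to G2/M cells. Tk1, thymidine kinase, had a median ratio of 13.0 to non-cycling cells, Rrm1, the large subunit of ribonucleotide reductase, 6.75, and Tyms, thymidylate synthase, 6.10. Samhd1, which breaks deoxynucleotides down, had the smallest ratio at 1.60. The genes of the list thus differed widely in their distance from non-cycling cells.

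Genes of chromatin assembly and cohesion were above non-cycling cells in 16 of 16 cases and above G2/M cells in 14 of 16. Cdca5, the cohesin protector sororin, and Asf1b, a histone chaperone (median ratio 19.6), were low in non-cycling cells, at under 3 CPM in every library. Uhrf1, which brings the DNA methyltransferase to copied DNA, stood at 102, 116, 94.3 and 81.9 CPM in S-phase cells and at 5.79, 5.98, 7.89 and 8.35 CPM in non-cycling cells. Dnmt1, that methyltransferase, had a ratio of 4.43. The cohesin core was less tied to S phase, with ratios of 2.06 for Smc1a and 1.76 for Smc3, and Rad21 was lower than in G2/M cells (0.665).

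Fork repair genes were above both classes in 14 of 14 cases, with a median log2 difference of 2.37 to non-cycling cells. Fancd2 and Rad51ap1, of the Fanconi anemia and homologous recombination pathways, had ratios of 23.5 and 22.7, Brca1 one of 15.8 and Chek1, the checkpoint kinase, one of 4.35. The p53 targets, which respond to DNA damage, showed no such shift, with 3 of 10 above non-cycling cells in all 4 libraries, 7 below and a median of -0.11, or -0.014 with each cell thinned to 5000 UMIs. Cdkn1a, the CDK inhibitor p21, was among the 3 above, at 48.6, 33.7, 43.2 and 44.0 CPM against 36.3, 26.8, 32.4 and 29.7 CPM.

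**Figure D2:**
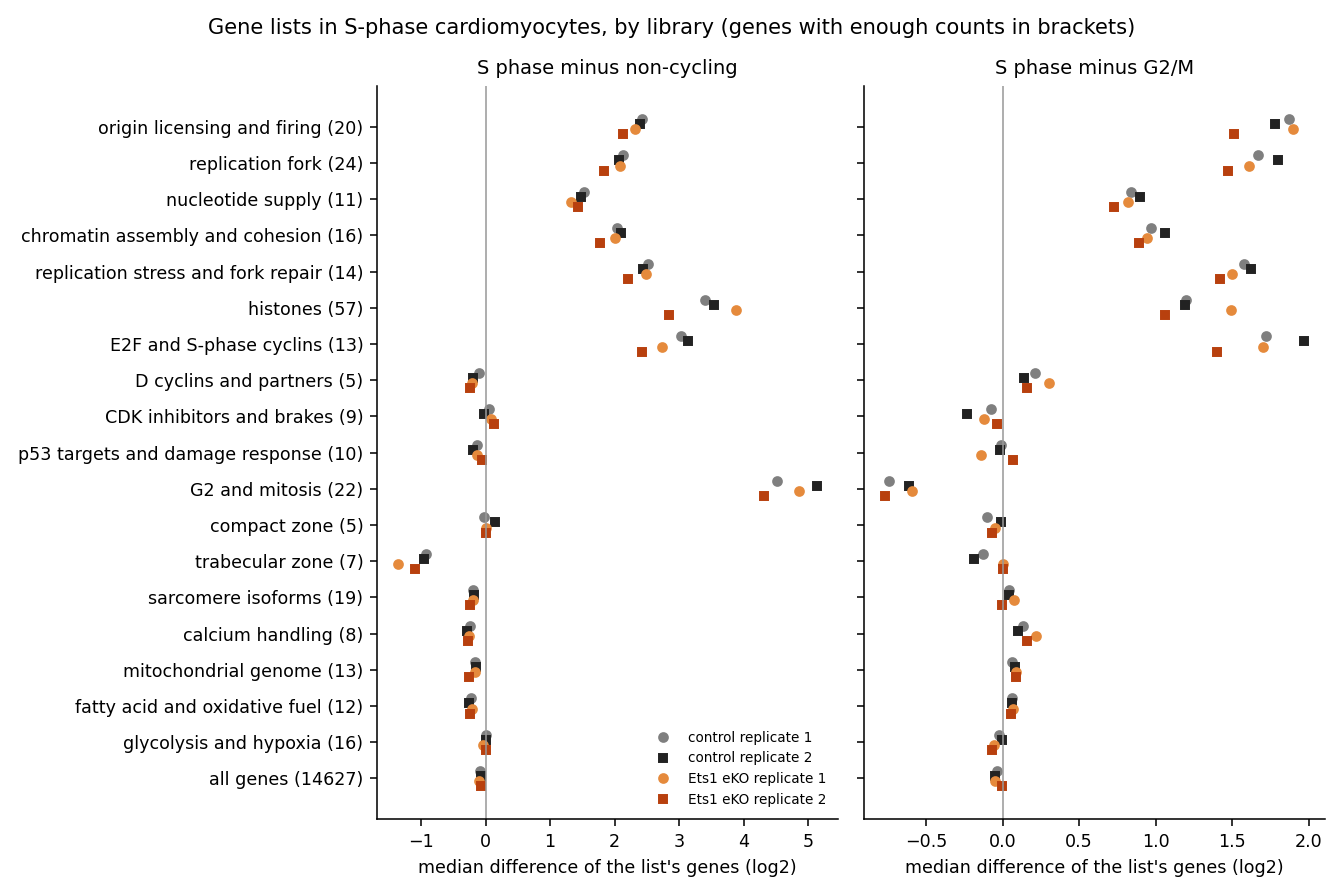
Median log2 difference of each gene list between S-phase and non-cycling cardiomyocytes (left) and between S-phase and G2/M cardiomyocytes (right), 1 point per library, with the number of genes that had enough counts in brackets. Replication lists sit right of 0 in both panels, and the list of G2 and mitosis genes changes side, from 4.69 to -0.69.

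E2F factors and S-phase cyclins were above non-cycling cells in 13 of 13 cases, with a median log2 difference of 2.98. E2f7 and E2f8, the E2Fs that repress transcription, had ratios of 27.2 and 18.9, and the activator E2f1 had one of 7.89. Ccne2, cyclin E2, stood at 59.2, 57.4, 64.9 and 54.9 CPM in S-phase cells and at 4.53, 2.54, 6.09 and 5.36 CPM in G2/M cells, so it belongs to S phase more than to the cycle as a whole. Ccna2, cyclin A2, had the opposite standing, with a ratio of 0.517 to G2/M cells. The D cyclins, which carry growth signals into the cycle, were not above non-cycling cells, at median ratios of 0.852 for Ccnd1, 0.789 for Ccnd2 and 0.797 for Ccnd3, while their partner Cdk4 was at 1.46. The median of that list was -0.23, and -0.35 without cells of high doublet score or -0.03 with thinning to 5000 UMIs.

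Genes of CDK inhibition and growth arrest split, with 4 of the 9 that had enough counts above non-cycling cells in all 4 libraries and 4 below. Cdkn2c, the inhibitor p18, was at 21.2, 15.3, 16.4 and 16.7 CPM in S-phase cells against 1.14, 0.629, 0.746 and 0.957 CPM in non-cycling cells, a median ratio of 20.3. Cdkn1c, the inhibitor p57, was lower in S phase, at 225, 290, 201 and 359 CPM against 342, 409, 308 and 455 CPM. Cdkn2a and Cdkn2b, the locus of p16, stayed under 0.6 CPM in S-phase cells of every library and had too few counts to compare.

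Genes of G2 and mitosis were above non-cycling cells in 22 of 22 cases, with a median log2 difference of 4.69, and below G2/M cells in 19 of 22, with one of -0.69. Top2a stood at 485, 529, 598 and 431 CPM in S-phase cells and at 502, 503, 532 and 441 CPM in G2/M cells, so its level per UMI was close in these classes, although at equal depth more S-phase than G2/M cells had a UMI of it. Plk1 and Cdc20, a kinase and an activator of mitotic exit, were lower, with ratios of 0.325 and 0.191 to G2/M cells.

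Within the class, S-phase cells were grouped by their G2/M gate UMIs, a count that the class rule also used. S-phase cells without a G2/M gate UMI made up 12.1%, 12.0%, 11% and 12.9% of the class, control libraries first and then Ets1 eKO, and those with at least 3 made up 70.2%, 70.5%, 69.4% and 63.7%. Licensing genes summed to 1537, 1629, 1616 and 1602 CPM in the former and to 1371, 1359, 1309 and 1356 CPM in the latter. Histone genes summed to 245, 425, 457 and 387 CPM in the former and to 1500, 2414, 2907 and 1314 CPM in the latter. Top2a was at 130, 160, 153 and 180 CPM in the former and at 600, 648, 740 and 518 CPM in the latter. All 4 libraries show the same order of these end groups for licensing, histones and Top2a. Fork genes did not, at 1911, 2019, 2025 and 2126 CPM in the former and 2065, 1998, 1824 and 1908 CPM in the latter. Cells with 1 or 2 G2/M gate UMIs lay between for histones (476, 651, 917 and 729 CPM), but for licensing (1626, 1503, 1567 and 1617 CPM) they exceeded the cells without any in control replicate 1 and Ets1 eKO replicate 2. A member needs more S gate than G2/M gate UMIs, so cells with at least 3 of the latter must also be rich in S gate RNA, and the rule itself bears on these differences. Cells in the latter were also deeper, for example 17259 against 14719 median UMIs in control replicate 1, and the part of depth in these differences was not tested.

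The histone genes are a family of near-identical copies, mostly without a poly(A) tail, so their counts by a 3' poly(A) method are a partial view and the level of any single copy is uncertain. Of 66 genes besides Hist1h1b, 57 had enough counts, and 53 of these were above non-cycling cells in all 4 libraries, with a median log2 difference of 3.46, or 2.92 with thinning to 5000 UMIs. Hist1h2ap stood at 67.2, 299, 353 and 161 CPM in S-phase cells and at 0.762, 2.33, 2.99 and 2.23 CPM in non-cycling cells. The family summed to 1204 and 1938 CPM in the controls and to 2339 and 1100 CPM in Ets1 eKO replicates 1 and 2, so the libraries differed within each group by more than the groups did. Hist1h2bc, Hist3h2a and Hist3h2ba went the other way, with median ratios of 0.383, 0.198 and 0.396. Across single cells the spread was wide: 10% of S-phase cells had at most 1.21, 1.70, 1.79 and 1.5 histone UMIs per 10000 and 10% at least 23.5, 37.5, 45.8 and 22.1, while licensing genes ran from 8.65, 8.49, 8.02 and 8.37 to 21.5, 20.6, 20.7 and 21.9.

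Muscle genes were slightly lower in S-phase than in non-cycling cells. Sarcomere isoforms were below in 17 of 19 cases with a median log2 difference of -0.19, and calcium handling genes in 8 of 8 with one of -0.26. Mitochondrial genome transcripts were below in 12 of 13 (median -0.17) and genes of fatty acid and oxidative fuel use in 10 of 12 (-0.24). Titin (Ttn) illustrates the size, at 8316, 8337, 8724 and 6177 CPM against 9341, 9448, 9394 and 6994 CPM. Ttn is a gene of the cardiomyocyte gate. That gate and the limit of 15% mitochondrial UMIs chose the cells of both classes, so the rule bears on these levels. All genes together had a median of -0.088, and 39.9% of them were below non-cycling cells in all 4 libraries. Glycolysis and hypoxia genes divided evenly, with 6 of 16 above in all 4 libraries and 6 below, and a median of -0.0096 that was 0.017 without cells of high doublet score.

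Genes of the trabecular zone differed more than any other muscle list, with 7 of 7 below non-cycling cells and a median log2 difference of -1.03. Nppa, the atrial natriuretic peptide of trabecular muscle, stood at 1285, 1346, 960 and 2064 CPM in S-phase cells and at 2424, 2436, 2676 and 4637 CPM in non-cycling ones. Bmp10, a growth factor of the trabeculae, stood at 6.76, 10.2, 5.22 and 9.95 CPM against 20.9, 29.8, 21.4 and 28.9 CPM. The compact zone list showed a median of -0.0023, with only Tnnt1, slow skeletal troponin T, above non-cycling cells in all 4 libraries at a median ratio of 1.2. Against G2/M cells, the trabecular list had a median of -0.18, so it sets both cycling classes apart from non-cycling cells rather than S phase from G2/M.

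The lists of signalling and regulation differed little between S-phase and non-cycling cells. The medians were -0.11 for receptors of endothelial factors, -0.04 for growth factor receptors and ligands, -0.13 for the Hippo pathway and its targets and -0.11 for cardiac transcription factors. Without cells of high doublet score the medians were -0.26 for receptors, -0.063 for growth factors and -0.069 for cardiac transcription factors, and with thinning to 5000 UMIs -0.055 for receptors and -0.077 for growth factors. Itga6, a laminin receptor, and Robo1, a receptor of Slit ligands, were the lowest of their list, with ratios of 0.444 and 0.651. Erbb4, the neuregulin receptor of cardiomyocytes, stood at 1328, 1485, 1111 and 1000 CPM in S-phase cells and at 1192, 1467, 1065 and 923 CPM in non-cycling ones. Immediate early and heat shock genes, which dissociation can raise, had a median of -0.41, and 8 of 11 were below in all 4 libraries. Their sum went the other way, at 1626, 1650, 1351 and 1579 CPM against 1557, 1403, 1127 and 1370 CPM in non-cycling cells. Hsp90aa1, the most abundant, was at 1065, 1132, 1000 and 1119 CPM against 791, 789, 708 and 807 CPM.

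The genes with the largest S-phase to non-cycling ratios were also taken without a list. Among genes of at least 20 CPM on average in the higher class, and with the gate genes left out, the 20 largest median ratios ran from 51.7 for Cdca2 to 230 for Neil3. The gate genes Esco2 (352), Hist1h1b (219), Hmmr (126), Pclaf (97.8) and Cenpf (74.1) have ratios of that size by the choice of the cells. Neil3, a DNA glycosylase of the replication fork, stood at 93.2 and 103 CPM in control S-phase cells and at 77.2 and 73.7 CPM in Ets1 eKO replicates 1 and 2, against 0.267 to 0.798 CPM in non-cycling cells. Others of the 20 were the mitotic kinases Aurkb (75.8), Pbk (95.5), Melk (56.4) and Ttk (55.6), the motors Kif4 (75.4), Kif15 (61.3) and Kif2c (55.2), and the kinetochore genes Ndc80 (73.9) and Ska1 (56.5). 5 of the 20 are histone genes, Hist1h2ap, Hist1h2an, Hist1h2ab, Hist1h3c and Hist1h1a, and the rest are Depdc1a, Mki67, Cdca5 and Ckap2l. Genes also above their G2/M level in all 4 libraries include Neil3 (2.60), Pbk (1.54), Kif15 (1.69) and the 5 histone genes, while Kif2c (0.449), Ckap2l (0.615) and Depdc1a (0.651) were below it. The rule for non-cycling cells, which allows at most 1 UMI of each gate, bears on the size of these ratios.

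The genes with the largest S-phase to G2/M ratios were others. After Cdc6 (13.7) and Ccne2 (11.9) came Ung (9.78), which removes uracil from DNA, E2f1 (7.70), Cdt1 (7.58), Slfn9 (6.98), Dscc1 (6.54), of an alternative clamp loader, and the chromatin remodeler Hells (6.49). Mybl2 (6.28), a partner in the switch to mitotic genes, and Tcf19 (6.14) completed the 10. Each was above its G2/M level in all 4 libraries, the lowest ratio of the 10 in any library being 4.47, for Tcf19.

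The 10 smallest S-phase to non-cycling ratios ran from 0.102 for Cacna2d2 to 0.288 for Slit3. Cacna2d2, a calcium channel subunit, stood at 3.63, 6.62, 6.03 and 6.12 CPM in S-phase cells and at 36.2, 64.1, 63.0 and 43.7 CPM in non-cycling cells. Rspo3, a WNT enhancer, had a median ratio of 0.176, Cpne5 one of 0.177, and Igfbp5, an IGF binding protein, one of 0.217, while Slit3 encodes a guidance ligand. Fbxo32, the ubiquitin ligase atrogin-1, was at 0.239 and Kdm7a, a histone demethylase, at 0.259, and with Hist3h2a (0.198), Lrrtm4 (0.251) and Tcp11l2 (0.283) they make up the 10.

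Promoters of these genes were searched for 3 motifs on both strands, in RefSeq windows of 300 bases from 250 before to 50 after each start (GRCm38.p6). The motifs were the E2F site (TTTCCCGC, TTTCGCGC, TTTGCCGC or TTTGGCGC), the CCAAT box and the CHR element of cell cycle promoters (TTTGAA), and hits of different motifs may overlap. Of all 27025 genes with a window, 2.60% held the E2F letters, 41.1% the CCAAT box and 20.2% the CHR letters. E2F letters stood in 8 of the 15 matched licensing genes (53.3%), 7 of 19 fork genes (36.8%), 6 of 10 E2F and cyclin genes (60.0%), 5 of 14 chromatin genes (35.7%), 0 of 10 nucleotide genes and 0 of 17 sarcomere genes. CHR letters stood in 14 of 19 genes of G2 and mitosis (73.7%), where E2F letters stood in 1 of 19 (5.26%). CHR letters also stood in 5 of 15 licensing genes (33.3%), and in 9 of 11 matched genes among the 20 with the largest ratios to non-cycling cells (81.8%). The licensing list and the list of G2 and mitosis thus differ in how often these windows hold each set of letters, with CHR letters in both, and a match is not shown to be a bound site. The stretches below are the 100 bases before the start, chosen to show each kind, with the letters of the E2F, CCAAT and CHR motifs in capitals. Kif15 (chr9:122950981-122951080, plus strand) and Gins3 (chr8:95633459-95633558, plus strand) hold E2F and CHR letters together, Orc1 (chr4:108579354-108579453, plus strand) holds E2F and CCAAT letters, and Depdc1a (chr3:159495333-159495432, plus strand) and Mki67 (chr7:135716380-135716479, minus strand) hold CHR letters without E2F.
Kif15: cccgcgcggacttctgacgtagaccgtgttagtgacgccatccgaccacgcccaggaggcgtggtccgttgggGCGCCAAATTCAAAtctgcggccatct
Gins3: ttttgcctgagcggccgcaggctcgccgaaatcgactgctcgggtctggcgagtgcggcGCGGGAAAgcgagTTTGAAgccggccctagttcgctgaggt
Orc1: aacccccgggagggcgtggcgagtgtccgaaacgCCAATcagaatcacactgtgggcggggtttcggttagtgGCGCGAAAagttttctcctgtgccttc
Depdc1a: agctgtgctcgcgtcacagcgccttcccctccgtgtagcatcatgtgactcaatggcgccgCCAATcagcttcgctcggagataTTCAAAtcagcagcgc
Mki67: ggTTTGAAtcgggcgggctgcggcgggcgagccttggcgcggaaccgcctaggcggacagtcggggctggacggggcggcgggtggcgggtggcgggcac

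The share of cardiomyocytes in S phase was compared between the groups with each cell thinned to 5000 UMIs, where at least 2 S gate UMIs were asked for. It was 17.8% in control replicate 1 (exact 95% interval 16.8 to 18.9%) and 15.8% in control replicate 2 (14.4 to 17.3%). It was 19.7% in Ets1 eKO replicate 1 (18.4 to 21.0%) and 21.2% in Ets1 eKO replicate 2 (20.1 to 22.3%). Both Ets1 eKO libraries thus lay above both controls, with means of 20.4% ± 1.06 (SD, n = 2) and 16.8% ± 1.41 (SD, n = 2) and a difference of 3.60 percentage points. The exact permutation test over libraries, two-sided, gave p = 0.33, the smallest that 2 libraries against 2 can give. Without thinning the shares were 17.6%, 15.9%, 19.3% and 17.7% and the difference 1.80 points. The share of the shallow Ets1 eKO replicate 2 moved most between these settings. At 8000 UMIs the difference was 5.61 points. Its size thus depends on the depth setting. Thinning leaves out cells under 5000 UMIs, non-cycling cells more often than S-phase cells. In Ets1 eKO replicate 2, 2005 of 2610 non-cycling and 1047 of 1101 S-phase cells had that depth. In control replicate 1 it was 2082 of 2271 and 893 of 917. The part of this loss in the difference was not tested. Sex-linked counts and blood RNA differ between the same libraries, and their part in the difference was not tested.

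Cells were then placed by zone, compact-side with at least 5 UMIs of Tnnt1 and under 5 of Nppa after thinning, and trabecular-side with the reverse. Immune cells, which should lack both genes, reached 5 Nppa UMIs in 0.794% of control replicate 1 and 3.09% of Ets1 eKO replicate 2, and in 0 of 85 and 0 of 145 cells of the other libraries, which allows up to 3.53% and 2.07%. The zone shares of S-phase cells, above 10% for each side in every library, stand above that background. Of compact-side cardiomyocytes, 19.4%, 19.7%, 21.2% and 24.9% were in S phase, and of trabecular-side ones 13.1%, 11.8%, 14.5% and 15.9%.

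In each of the 4 libraries S phase was more frequent on the compact side, by 6.30, 7.83, 6.72 and 9 percentage points. The mean difference was 7.46 points, and the exact permutation of signs within libraries, two-sided, gave p = 0.13, the smallest 4 libraries can give. Between the groups the compact-side share differed by 3.54 points (19.5% ± 0.22 against 23.1% ± 2.56, SD, n = 2) and the trabecular-side share by 2.74 points (12.5% ± 0.864 against 15.2% ± 0.949, SD, n = 2), each with an exact permutation p = 0.33. The compact-side difference was 5.35 or 1.73 points when Ets1 eKO replicate 1 or 2 was left out, 2.06 without thinning and 6.49 at 8000 UMIs, and the trabecular-side difference was 1.21 points without thinning, where the groups overlap. At this sample size neither zone can be said to differ between the groups.

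**Figure D3:**
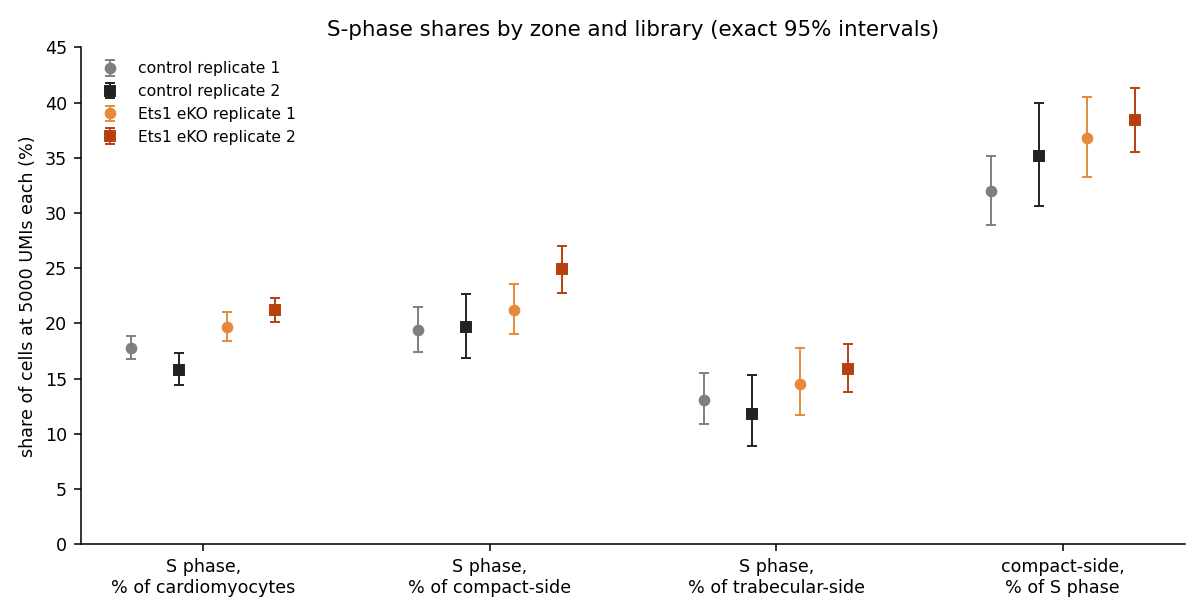
Share of all, compact-side and trabecular-side cardiomyocytes in S phase, and of S-phase cardiomyocytes on the compact side, in percent of cells thinned to 5000 UMIs, with exact 95% binomial intervals for the 4 libraries. The compact-side points (19.4 to 24.9%) lie above the trabecular-side points (11.8 to 15.9%) and the Ets1 eKO points above the control points in each column.

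The zone makeup of the class was also compared. Compact-side cells were 32.0% and 35.2% of control S-phase cells and 36.8% and 38.4% of those of Ets1 eKO replicates 1 and 2, a difference of 4.02 points (33.6% ± 2.25 against 37.6% ± 1.08, SD, n = 2, exact permutation p = 0.33). Without control replicate 1 the difference was 2.43 points. Trabecular-side cells were 12.4%, 12.0%, 10.7% and 16.3% of S-phase cells, and 54.7%, 51.6%, 51.1% and 42.2% had neither gene at the minimum. Over all cardiomyocytes the compact side held 29.4%, 28.3%, 34.1% and 32.7% and the trabecular side 16.9%, 16.1%, 14.5% and 21.7%. The compact lean and the order of the groups are thus also present among all cardiomyocytes, and neither is shown to belong to the class. The plot of shares by zone and library shows intervals that overlap between neighbouring libraries in every zone.

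S-phase cells of the compact and the trabecular side differed in several genes known to mark those zones, here as a description. Hey2, a compact zone transcription factor, stood at 62.6, 83.3, 66.3 and 59.2 CPM on the compact side and at 43.4, 29.8, 47.6 and 33.2 CPM on the trabecular side. Mycn (median ratio 1.68), which drives compact zone growth, Erbb4 (1.58), the D cyclin partner Cdk6 (1.54), Tbx20 (1.5) and Hand2 (1.40) were also higher on the compact side in all 4 libraries. On the trabecular side Bmp10, Gja5, Irx3 and Cited1 were higher in all 4 libraries, with compact to trabecular ratios of 0.0312, 0.164, 0.196 and 0.118, as were Myl4 (0.378) and Myh6 (0.422), sarcomere isoforms shared with atrial muscle. Prdm16, another compact zone regulator, did not follow, with a ratio of 0.967 and a higher compact-side level in 2 of 4 libraries. These ratios were not compared with those of non-cycling cells. Other cycle genes had ratios of 1.17 for E2f1, 1.38 for Mybl2 and 0.735 for the cyclin Ccne1.

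For the effect of the endothelial deletion on gene expression, UMIs were summed over the S-phase cells of each library and tested with edgeR. Of 13434 genes tested, Tnni2 was higher and Sorcs2 lower in Ets1 eKO libraries at an adjusted p of at most 0.05, which is 0.00744% of genes in each direction, and 1140 genes had an unadjusted p under 0.05, 495 higher and 645 lower. DESeq2 called the same 2 genes. Ranges of the groups did not overlap for 1401 genes higher (10.4%) and 4734 lower (35.2%) in Ets1 eKO, counted on levels per total UMIs, a scale on which the median gene lies at -0.096. The number of calls rests on the libraries: it was 3 or 8 when control replicate 1 or 2 was left out, and 1701 or 447 when Ets1 eKO replicate 1 or 2 was, where a lone library is assumed to vary as the others do. The Ets1 eKO libraries differed more from each other than the controls did, with a chi-square per degree of freedom of 31.2 against 6.45 across genes.

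Sorcs2 (ENSMUSG00000029093, mm10 chr5:36017180-36398139, minus strand) encodes a sortilin-family receptor that binds proneurotrophins. It stood at 38.4 and 41.9 CPM in S-phase cells of the controls (602 and 329 UMIs) and at 15.1 and 13.9 CPM in Ets1 eKO replicates 1 and 2 (205 and 170 UMIs). Both Ets1 eKO libraries were thus far below both controls, with means of 14.5 ± 0.855 and 40.1 ± 2.49 CPM (SD, n = 2). The log2 change was -1.36 (SE 0.14), adjusted p = 0.0276 by edgeR, lower in 2 of 2 Ets1 eKO libraries.

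The change in Sorcs2 was not particular to S phase, since the log2 change was -1.48 in non-cycling cells (adjusted p = 0.0207) and -1.44 in G2/M cells (adjusted p = 0.0556), and its difference between S-phase and non-cycling cells was 0.13 (adjusted p = 0.970). At 5000 UMIs per cell, 18.0%, 17.7%, 6.8% and 6.69% of S-phase cells had a Sorcs2 UMI, against 0.794%, 1.18%, 0% and 2.06% of immune cells, where 0 of 145 allows up to 2.07%. Among S-phase cells with Y-linked and no Xist UMIs, Sorcs2 was at 38.3 and 43.2 CPM in the controls and 18.3 CPM in Ets1 eKO replicate 1. Among those with Xist and no Y-linked UMIs, it was at 42.3 CPM in control replicate 2 and at 14.4 and 13.9 CPM in Ets1 eKO replicates 1 and 2. The lower level thus appeared in cells of either kind. On the compact side the levels were 36.1, 26.7, 15 and 9.79 CPM, and with those cells alone the change was -1.26 (adjusted p = 0.170, range over the alternatives in the closing section).

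**Figure D4:**
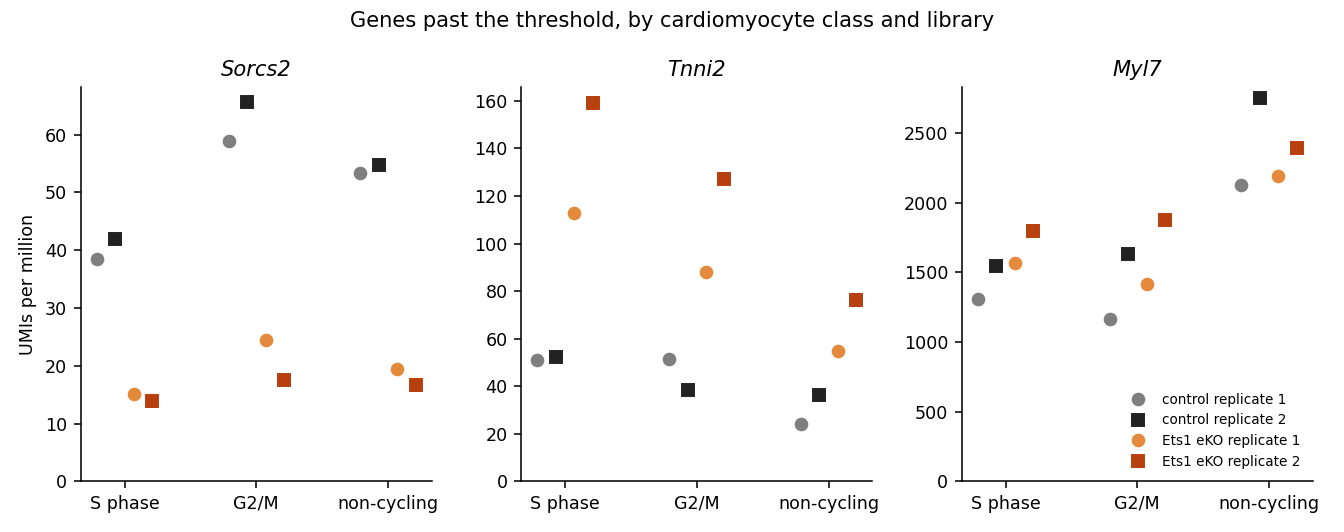
Levels of Sorcs2, Tnni2 and Myl7 in UMIs per 1000000 in S-phase, G2/M and non-cycling cardiomyocytes, 1 point per library (grey and black, controls; orange and red, Ets1 eKO). Sorcs2 is lower in Ets1 eKO in each class and Tnni2 higher in each class. Myl7 levels of the groups do not overlap over all S-phase cells (1312 and 1549 against 1570 and 1796 CPM). That change did not pass (adjusted p = 0.570 by edgeR), and the groups overlap in G2/M and in non-cycling cells.

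Tnni2 (ENSMUSG00000031097, mm10 chr7:142441808-142444410, plus strand) encodes the fast skeletal isoform of troponin I. It stood at 51.2 and 52.2 CPM in control S-phase cells (804 and 410 UMIs) and at 113 and 159 CPM in Ets1 eKO replicates 1 and 2 (1542 and 1947 UMIs). The Ets1 eKO libraries were above the controls and apart from each other, with means of 136 ± 32.1 and 51.7 ± 0.685 CPM (SD, n = 2). The log2 change was 1.51 (SE 0.17), adjusted p = 0.0382 by edgeR, higher in 2 of 2 Ets1 eKO libraries. The call was lost without control replicate 1 (1.5, adjusted p = 0.123) and, among other settings, without cells of high doublet score (1.51, adjusted p = 0.0698), with a gate of at least 8 UMIs (1.40, adjusted p = 0.306), on the compact side alone (1.19, adjusted p = 0.0801) and with at most 10% mitochondrial UMIs (1.47, adjusted p = 0.0825).

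Tnni2 came from a minority of the S-phase cells. A Tnni2 UMI was present in 15.2%, 18.0%, 25.1% and 26.5% of S-phase cells, and the tenth of cells richest in it held 94.2%, 91.7%, 91.4% and 86.9% of its UMIs, with up to 108, 113, 103 and 83 UMIs in a cell. At 5000 UMIs per cell, 7.73%, 9.46%, 13.3% and 19.7% of S-phase cells had a UMI against 4.90%, 6.75%, 8.22% and 9.83% of non-cycling cardiomyocytes. In immune cells the shares were 13.5%, 14.1%, 13.1% and 17.5%, above those of non-cycling cardiomyocytes. They were also above the S-phase shares of both controls, and below those of Ets1 eKO replicates 1 (13.3%) and 2 (19.7%). The control S-phase shares thus do not stand above that background. The source of Tnni2 counts in immune cells was not tested. The level was highest in S-phase cells with neither zone gene at the minimum, at 58.2, 77.7, 152 and 282 CPM, against 42.7, 24.8, 80.2 and 68.8 CPM on the compact side.

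Tnni2 was also counted in S-phase cells by their sex-linked UMIs. Among S-phase cells with Y-linked and no Xist UMIs it was at 51.7 and 64.7 CPM in the controls and at 64.3 CPM in Ets1 eKO replicate 1, which overlaps the controls. Among those with Xist and no Y-linked UMIs it was at 17.0 CPM in control replicate 2 and at 135 and 154 CPM in Ets1 eKO replicates 1 and 2. The libraries that hold cells of both kinds thus went opposite ways, and the control side of the Xist comparison is 1 library with 62 UMIs. A single cell of control replicate 2 held 113 of its 410 Tnni2 UMIs, so these levels rest on few cells, and sex, embryo and genotype cannot be told apart. S-phase cells with neither or both kinds of UMI are not in these values. In non-cycling cells the log2 change was 1.23 (adjusted p = 0.287) and in G2/M cells 1.38 (adjusted p = 0.265), and its difference between S-phase and non-cycling cells was 0.23 (adjusted p = 0.947).

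A separate test asked which genes changed differently in S-phase and in non-cycling cells. Of 14627 genes, Myl7 passed (0.00684%), and 777 genes had an unadjusted p under 0.05. DESeq2 called the same gene, and the number of calls was 37 and 6 without control replicates 1 and 2 and 85 and 32 without Ets1 eKO replicates 1 and 2, with Myl7 among them each time. Myl7 (ENSMUSG00000020469, mm10 chr11:5896637-5898782, minus strand) encodes the regulatory myosin light chain of atrial muscle, which the early ventricle also expresses. It stood at 1312 and 1549 CPM in control S-phase cells and at 1570 and 1796 CPM in Ets1 eKO replicates 1 and 2, and in non-cycling cells at 2127, 2750, 2194 and 2394 CPM.

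S-phase cells therefore held less Myl7 than non-cycling cells in all 4 libraries, and the shortfall was smaller in Ets1 eKO, at ratios of 0.716 and 0.750 against 0.617 and 0.563. The difference of the changes was 0.32 on the log2 scale (SE 0.036), adjusted p = 0.0159 by edgeR. The change within S phase alone was 0.35 (adjusted p = 0.570 by edgeR) and did not pass. Among S-phase cells with Xist and no Y-linked UMIs the groups overlapped. There Myl7 was at 1642 CPM in control replicate 2 and at 1566 and 1773 CPM in Ets1 eKO replicates 1 and 2. Among those with Y-linked and no Xist UMIs it was at 1308 and 1315 CPM in the controls and 1441 CPM in Ets1 eKO replicate 1. The part of sex in the difference was not tested. A Myl7 UMI was present in 95.6%, 97.7%, 97.2% and 97.2% of S-phase cells, control libraries first and then Ets1 eKO. The tenth of cells richest in it held 45.3%, 47.9%, 50.7% and 40.9% of its UMIs. Myl7 in S-phase cells was also uneven by zone, at 1667, 1197, 2269 and 1825 CPM on the compact side and at 823, 2404, 785 and 1471 CPM on the trabecular side. The part of zone makeup in the difference was not tested. The plot of the changed genes by class shows the order of the libraries for all 3.

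No other gene passed that test as set. The 5 with the smallest unadjusted p whose ratios did not overlap between the groups, all with a lower change in S phase, were Nppa (-0.43, adjusted p = 0.157), E2f8 (-1.11, adjusted p = 0.185), Hapln1 (-1.89, adjusted p = 0.185), Uhrf1 (-0.75, adjusted p = 0.185) and Gm42418 (-0.13, adjusted p = 0.259) by edgeR. E2f8 stood at 50.1, 60.0, 47.8 and 41.5 CPM in S-phase cells and at 1.79, 2.39, 3.78 and 3.51 CPM in non-cycling cells. For E2f8 and Uhrf1 the larger change was the one in non-cycling cells (0.93 and 0.57, against -0.19 and -0.20 in S phase), where both genes have few UMIs. The median difference was also below 0 for licensing (-0.24), fork repair (-0.31) and G2 and mitosis genes (-0.22), against 0.04 for CDK inhibitors and 0.014 for histones. In non-cycling cells the S gate genes summed to 15.1 and 13.3 CPM in controls and to 15.7 and 25.1 CPM in Ets1 eKO replicates 1 and 2. The part of depth in these differences was not tested. With each cell thinned to 5000 UMIs the difference was -0.77 for E2f8 (adjusted p = 0.811) and -0.89 for Uhrf1 (adjusted p = 0.135). Hapln1, a hyaluronan link protein, stood under 5 CPM in S-phase cells of every library, and its difference was 0.21 without cells of high doublet score and -0.80 with thinning. Nppa passed in 7 of 10 alternatives, among them a gate of at least 8 UMIs (-0.43, adjusted p = 0.00334), thinning (-0.65, adjusted p < 0.001) and each library left out (-0.30 to -0.57), but not with DESeq2 (-0.44, adjusted p = 1.000), total count scaling (-0.44, adjusted p = 0.0638) or without cells of high doublet score (-0.31, adjusted p = 0.679). Uhrf1 passed without those cells (-0.80, adjusted p = 0.0368 by edgeR). Without a low-count filter all 5 genes passed (edgeR, adjusted p < 0.001 each). E2f8, Hapln1, Uhrf1 and Gm42418 each also passed in 1 or more fits with a library left out. Over those fits they ran from -1.03 to -1.19, -1.80 to -2.07, -0.59 to -0.92 and -0.10 to -0.17. Those fits assume that a lone library varies as the others do. None of these genes passed with DESeq2 or total count scaling.

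None of the listed genes of replication passed the test of Ets1 eKO against control in S-phase cells. Licensing genes had a median log2 change of 0.043 over 20 genes, with 1 gene at an unadjusted p under 0.05, Ticrr (-0.45). Fork genes had a median of -0.0019 over 24 genes. Prim2, the large primase subunit, was lower at 73.4 and 74.6 against 53 and 51.9 CPM (log2 change -0.39, SE 0.12, adjusted p = 0.570), a gap that did not pass. Rfc3, a clamp loader subunit, was higher at 59.9 and 60.0 against 73.4 and 63.9 CPM (log2 change 0.30, SE 0.13, adjusted p = 0.570) and did not pass either. Nucleotide supply, chromatin and fork repair lists had medians of 0.031, 0.019 and -0.081, against 0.01 for all genes tested, and the p53 targets one of 0.15. The total count scale places the median of all genes at -0.096, and on it the licensing, nucleotide supply and chromatin medians change sign, to -0.066, -0.077 and -0.09, while the fork, fork repair and p53 medians keep theirs (-0.11, -0.19 and 0.041).

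Regulators of the cycle likewise gave no call. E2F and S-phase cyclin genes had a median of -0.11 over 13 genes, and E2f3, an activator, stood at 92.4 and 106 CPM in controls and at 76.0 and 66.9 CPM in Ets1 eKO replicates 1 and 2 (log2 change -0.36, adjusted p = 0.570). D cyclins and partners had a median of 0.16, CDK inhibitors and brakes of 0.073, and genes of G2 and mitosis of 0.066. With total count scaling these were 0.048, -0.034 and -0.043, so the latter pair changed sign. Btg2, an antiproliferative gene induced early by stress, stood at 59.1 and 47.4 CPM against 27.6 and 34.9 CPM (-0.67, adjusted p = 0.570). Histone genes had a median of 0.25 over 57 genes, and the spread within each group seen above covers it.

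**Figure D5:**
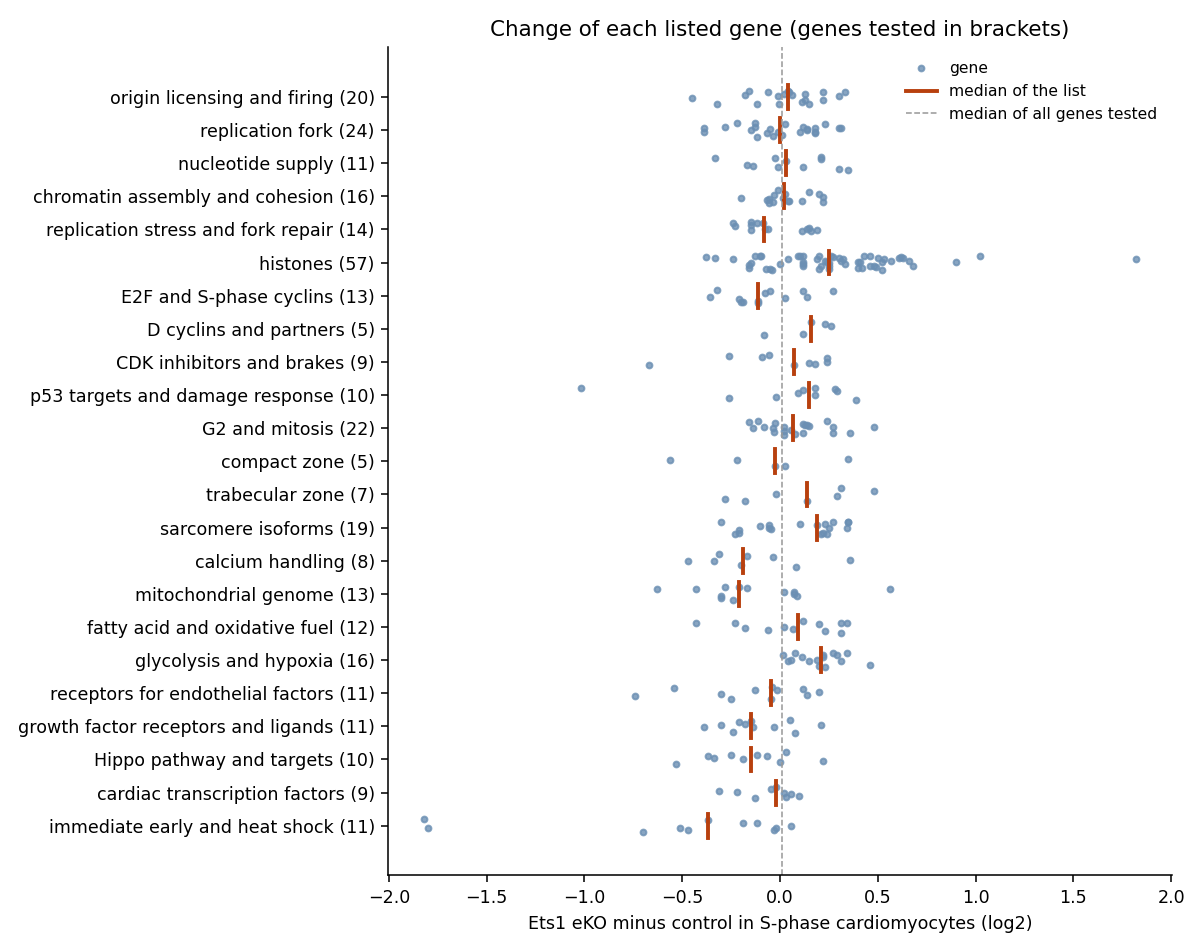
Log2 change between Ets1 eKO and control in S-phase cardiomyocytes for each tested gene of the lists named on the axis (blue points; markers of cell types and sex-linked genes are not drawn), with the median of the list (red bar) and of all genes tested (dashed line). Medians drawn run from -0.37 for immediate early and heat shock genes to 0.25 for histones, and no gene shown passed the adjusted threshold.

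Muscle and metabolic lists gave no call. Sarcomere isoforms had a median of 0.19 over 19 genes and calcium handling genes of -0.19 over 8. Cacna1c, the L-type calcium channel, stood at 2172 and 2274 CPM in controls and at 1682 and 1288 CPM in Ets1 eKO replicates 1 and 2 (log2 change -0.47, adjusted p = 0.570). Glycolysis and hypoxia genes had a median of 0.21 over 16 genes, and 0.10 with total count scaling. Their sum overlaps between the groups, at 9528 and 9729 CPM in controls and at 9400 and 11160 CPM in Ets1 eKO. Mitochondrial genome transcripts had a median of -0.21 over 13 genes and summed to 58125 and 58942 CPM in control S-phase cells and to 47200 and 44879 CPM in Ets1 eKO ones, so the groups do not overlap in the sum. Median mitochondrial shares of S-phase cells were 5.63%, 5.55%, 4.58% and 4.22%, and the part of RNA quality in these lists was not tested. Fatty acid and oxidative fuel genes had a median of 0.093, which changed sign to -0.014 with total count scaling. On that scale the sarcomere, calcium handling and mitochondrial genome medians were 0.082, -0.29 and -0.32.

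Lists of zone, signalling and transcription gave no call either. Medians were -0.025 for the compact zone, 0.14 for the trabecular zone and -0.047 for receptors of endothelial factors. They were -0.15 for growth factor receptors and ligands, -0.15 for the Hippo pathway and its targets and -0.022 for cardiac transcription factors. With total count scaling the zone medians were -0.13 and 0.025, so their size rests on the scaling. The other medians were then -0.15, -0.26, -0.26 and -0.13 in the same order. Prdm16, which promotes compact zone identity, stood at 131 and 137 CPM in controls and at 92.6 and 76.2 CPM in Ets1 eKO replicates 1 and 2 (log2 change -0.56, SE 0.14, adjusted p = 0.570). Yap1 and Wwtr1, the effectors held back by Hippo signalling, were lower in both Ets1 eKO libraries, at 48.8 and 51.3 against 36.2 and 35.6 CPM and at 64.5 and 68.4 against 49.7 and 47.7 CPM, and did not pass (adjusted p = 0.570 each). The receptors Erbb4 (-0.30), Igf1r (-0.39) and Robo2 (-0.74) were also lower without passing. On levels per total UMIs, 35.2% of all genes tested were lower in Ets1 eKO without overlap, which is the background for the genes named here. The plot of changes by list shows how these genes sit within their lists.

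Immediate early and heat shock genes had a median of -0.37 over 11 genes, with 4 at an unadjusted p under 0.05 and lower. Egr1 stood at 170 and 139 CPM in controls and at 98.6 and 109 CPM in Ets1 eKO replicates 1 and 2 (log2 change -0.47, adjusted p = 0.570). These genes respond to dissociation, whose part was not tested. Ets1 itself stood at 10.5 and 8.40 CPM in control S-phase cells and at 11 and 12.2 CPM in Ets1 eKO ones (0.38, adjusted p = 0.570), in cells that the deletion does not target.

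Markers of other cell types gave no call in S-phase cells. Apart from the erythroid markers they were low, at no more than 217 CPM for a list in any library. The 10 endothelial markers summed to 19.2, 18.2, 15.5 and 26.1 CPM, with Egfl7 the most abundant, after a gate that admits at most 1 endothelial UMI of 4 genes. Fibroblast markers (8 genes, Col3a1 most abundant) summed to 199, 147, 107 and 195 CPM, epicardial markers (7 genes, Krt19) to 40.1, 49.3, 42.9 and 68.7 CPM, immune markers (8 genes, Fcer1g) to 14.8, 24.1, 7.94 and 34.3 CPM and smooth muscle markers (4 genes, Cnn1) to 162, 217, 199 and 166 CPM. No marker of these lists was at 0 in all libraries. Against non-cycling cells, fibroblast markers had a median log2 difference of 0.58, with 5 of 8 above in all 4 libraries (26.4% of all genes). Immune markers had one of 0.45, with 3 of 8 above. Endothelial markers had one of -0.38, with 1 of 10 above and 4 below. The part of other cell types in the comparison of classes was not tested. The smooth muscle list had a median log2 change of -1.68 over 3 genes tested (none called), while its sum, mostly from Cnn1, overlaps between the groups. The erythroid markers given above had a median log2 change of 1.55 over 7 genes tested, carried by Ets1 eKO replicate 2, and their part in the other differences was not tested.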

How the data were processed

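Ventricular cells were profiled with 10x 3' v3.1 chemistry, and the authors deposited UMI count matrices per library (Cell Ranger 7.1.0, mm10, with Seurat 4.3.0 in their later steps). All barcodes and 32285 genes were read, and the rule in the text was applied without further clustering. Members and gene lists were chosen with earlier results of these data known. UMIs were summed per library and class. edgeR 4.0.16 (TMM, filterByExpr, quasi-likelihood, Benjamini-Hochberg at 0.05) gave the tests, and DESeq2 1.42.0 the alternative, in R 4.3.3. Shares used cells thinned at random to 5000 UMIs, exact Clopper-Pearson 95% intervals and exact permutation over libraries (Python 3.11.15, scipy 1.17.1). Intervals and the limit that a count of 0 allows (3 counts) cover counting error only. Doublet scores came from 2 simulated doublets per cell and 90 neighbours, removing 0.8% per 1000 cells. A log2 change comes from the fit, and a level is UMIs per 1000000 of the class. Genes were named from the lists, from those past the threshold without overlap (up to 10 in each direction; for the class difference 5, or the 5 smallest p), and from the 20 largest and 10 smallest ratios to non-cycling and 10 largest to G2/M. Alternatives were scaling, filters, gates, depth, doublets, replicates left out and a replicate block.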

Additional observations from a re-analysis of the deposited data

Results flagged for a closer look

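The Ets1 eKO change of Myl7 differed between S-phase and non-cycling cardiomyocytes by 0.32 on the log2 scale, by a direct test of the difference (edgeR, adjusted p = 0.0159). S-phase to non-cycling ratios were 0.617 and 0.563 for control, then 0.716 and 0.750 for Ets1 eKO.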

How the results depend on the processing

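Sorcs2 stayed lower and Tnni2 higher in Ets1 eKO S-phase cells under every alternative, at -1.26 to -1.47 and 1.19 to 1.74 on the log2 scale, and Myl7 kept its call in each of the 10 alternatives run for the class difference (0.25 to 0.42). The count of changed genes, 2 as reported, was also 2 with total count scaling, DESeq2 or thinning to 5000 UMIs. It was 81 without a low-count filter, 4 on the compact side alone (all globin genes), and 1 each with doublets removed, a gate of 8 UMIs or mitochondrial UMIs of at most 10%. Leaving out each library gave 3 to 1701, with the lone library assumed to vary like the other group. With the replicate number as a block it was 35, although same-numbered libraries did not deviate together (correlation -0.13, and -0.35 over the 6107 genes of at least 20 CPM), and a crossed block, chosen after seeing the data, gave 15. The count of genes that differed between classes, 1 as reported, was 82 without a filter, 3 with doublets removed, 2 with a gate of 8 UMIs, 2 with thinning, and 6 to 85 when each library was left out. Hapln1 reversed with doublets removed, from -1.89 to 0.21. In all these cases the cause was not tested. Every share difference kept its direction in each setting.

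Limits are that 2 libraries per group allow no exact p under 0.33, that embryos are pooled, and that sex-linked counts, depth and blood RNA differ between libraries. The shallow Ets1 eKO replicate 2 left 927 cardiomyocytes under 5000 UMIs, against 279, 113 and 178 elsewhere.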
